A study of Mus musculus with 6 samples.

Results

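Amino acid and monocarboxylate transporter genes were compared between BCR-ABL1-transformed mouse B cell precursors with and without Etv5. The genes were all those whose symbol names a member of the solute carrier (Slc) families 1, 3, 6, 7, 16, 36, 38 or 43, on probe sets annotated with a single gene symbol. This gave 77 genes on 80 probe sets, of 19938 genes with a single-symbol probe set and 35556 probe sets in all. A gene with several probe sets (Slc16a9, Slc38a1 and Slc38a9) was read from its brightest probe set by the mean of the 6 arrays. The pattern also took in Slc7a6os and Slc6a19os, which are named for the gene they neighbour and are not transporters themselves. They were counted, and neither passed the test.

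The study hybridised total RNA of 6 samples to 1-colour Affymetrix arrays. In 3 samples the B cell precursors came from ETV5 wild-type mice and in 3 from ETV5 knockout mice; both groups were of strain 129SvEv and both carried BCR-ABL1, the fusion tyrosine kinase that drives Philadelphia chromosome-positive acute lymphoblastic leukaemia. Etv5 is a transcription factor of the ETS family. How the knockout allele was made, how the cells were transformed, the age of the mice, and whether a sample is a separate mouse, culture or clone are not stated in the labels, and p-values therefore cover only the spread among these samples, possibly a technical one. In bulk RNA, fewer cells of a type and less RNA per cell cannot be told apart.

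Solute carriers set which nutrients a cell can take up or release. Many Slc7 proteins are light chains that reach the plasma membrane only when bound to a heavy chain of the Slc3 family, chiefly Slc3a2 (CD98). The resulting dimers exchange one amino acid for another, so that uptake of leucine, for example, is paid for with glutamine that Slc1 and Slc38 carriers bring in. Slc36a1 and Slc38a9 act at lysosomes, where amino acids are sensed on the way to the growth kinase complex mTORC1. Slc16 proteins include the proton-coupled carriers of lactate and pyruvate. Proliferating lymphocytes depend on several of these carriers, among them Slc7a5, Slc1a5 and Slc16a1.

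The arrays had medians between 7.79 and 7.84 on the log2 scale. Signals are RMA values in log2 units throughout, and levels of different probe sets are not comparable with each other. Of the probe sets annotated to Etv5, 10438626 gave 9.30, 9.52 and 9.27 in wild-type samples against 8.97, 8.91 and 8.92 in knockout samples (log2 change -0.43, limma adjusted p = 0.0467), and 10363901 gave 11.48, 11.52 and 11.46 against 11.67, 11.88 and 11.73 (0.28, adjusted p = 0.13). Whether each of these probe sets lies at the Etv5 locus was not checked. The probes are not known to lie in the deleted part, so neither probe set tests the labels. All 11 measured B cell precursor markers, among them Cd79a, Ebf1 and Rag1, were above the level called dim below in both genotypes. Among them Pax5 was higher by 0.43 in the knockout and Dntt changed by -0.37 (adjusted p = 0.0127 and 0.0132). Of 10 myeloid markers, 2 were higher in the knockout, Ly6g by 1.14 and Itgam by 0.60 (adjusted p = 0.0156 and 0.0235), and 5 were dim in both genotypes. Of the other 8, Lyz2 lay below the wild type in every knockout sample, with a difference of -0.32 (adjusted p = 0.473), and over the 10 genes 5 differences were above 0 and 5 below, with a median of 0.0004. The mean of the myeloid list was 7.06 to 7.18 in wild-type samples and 7.14 to 7.37 in knockout samples. None of 9 T and NK cell, 5 erythroid or 9 stromal markers passed limma; at an unadjusted p under 0.05 there were 2, 0 and 0. The part of myeloid cells in the results below was not tested.

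Loss of Etv5 went with changes in 5 of the 77 genes. Of 18 carriers listed for their use in lymphocytes 2 passed, Slc36a4 and Slc7a11, and 16 did not, Slc7a5, Slc1a5 and Slc16a1 among them. That list was drawn up with earlier results of these data known. By the mark given below, Slc36a4 was dim in the wild type and Slc7a11 in both genotypes. Slc16a14, a little-characterised member of the monocarboxylate transporter family, was 5.66-fold higher in the knockout. Slc36a4, an amino acid carrier of intracellular and surface membranes, and Slc7a3, a carrier of arginine and lysine, were higher by 1.03 and 0.62 log2 units. Slc7a7, which exchanges cationic for neutral amino acids in a dimer with Slc3a2, was 2.28-fold lower. Slc7a11, the light chain of the cystine-glutamate exchanger, was lower by 0.56 log2 units at a dim signal. By limma with Benjamini-Hochberg adjustment over all probe sets at 0.05, 3 genes rose, 2 fell and 72 did not pass, that is 6.49% of the 77. Of all 19938 genes 4.43% passed, 2.42% higher and 2.01% lower in the knockout. Among the 258 genes of other Slc families 6.59% passed.

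**Figure D1:**
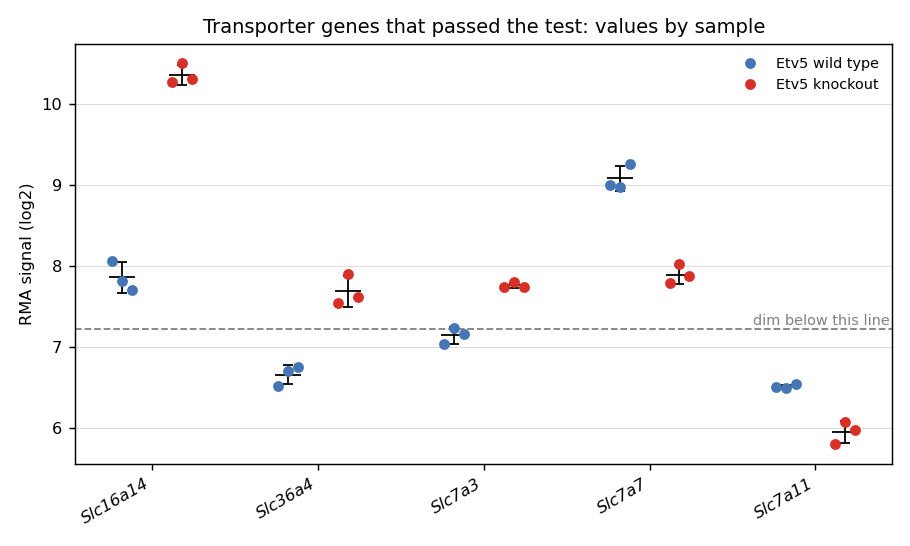
RMA signal (log2) in each of the 6 samples for the 5 transporter genes that passed the test; points are samples, black bars the mean and SD of 3 samples, and the dashed line the level of 7.22 below which a signal was called dim. In each gene the 3 knockout points lie apart from the 3 wild-type points, and Slc7a11 lies below the line in both genotypes.

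A signal was called dim in a genotype where its mean was under 7.22, the 95th percentile over 1205 probe sets of olfactory and vomeronasal receptor genes, which B lineage cells are not known to express. On this mark 28 of the 77 genes were dim in both genotypes, 2 (Slc36a4 and Slc7a3) in the wild type alone, and 47 in neither. Among the 49 genes not dim in both genotypes 4 passed (8.16%), beside 6.27% of the 13465 such genes of the whole table. Among the 28 dim in both, 1 passed (Slc7a11; 3.57%), beside 0.618% of the 6473 such genes of the whole table. The dim members were spread over the families: 2 of 7 in Slc1, 1 of 2 in Slc3, 9 of 21 in Slc6, 8 of 16 in Slc7, 5 of 13 in Slc16, none of 4 in Slc36, 3 of 11 in Slc38 and none of 3 in Slc43. Differences of dim probe sets are compressed by the array's background, so a small difference there says little.

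**Figure D2:**
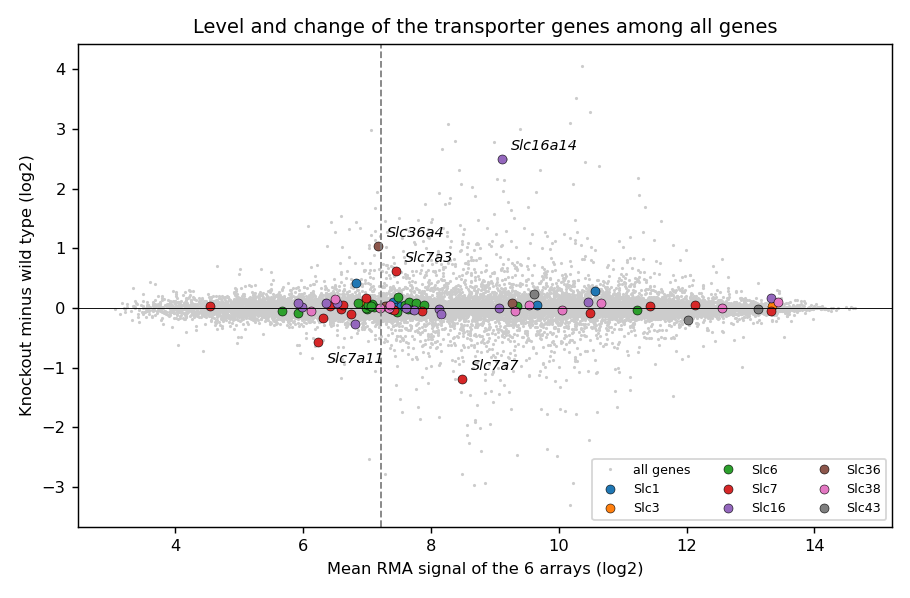
Mean RMA signal of the 6 arrays (log2, horizontal) against knockout minus wild type (log2, vertical) for all 19938 genes (grey) and the 77 transporter genes (coloured by Slc family); the dashed line is the dim level of 7.22. Most transporter genes lie close to no change at all levels, and Slc16a14 and Slc7a7 stand farthest above and below.

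Slc16a14 gave 8.07, 7.81 and 7.70 in wild-type samples against 10.27, 10.51 and 10.31 in knockout samples. Every knockout value was more than 2 log2 units above every wild-type value, and both groups lay above the dim level. The mean rose from 7.86 ± 0.19 to 10.36 ± 0.13 (SD, n = 3 each), a change of 2.50 ± 0.11 (SE; 95% interval 2.22 to 2.78; limma adjusted p = 0.000283). By the size of its change it ranked at 19 among the 19938 genes. The genes next to it in the order of the RefSeq gene table (GRCm38.p6, chromosome 1) did not pass: Fbxo36 differed by 0.04, Trip12 by 0.05, A530032D15Rik by 0.21 and Sp140 by -0.11 (adjusted p = 0.933, 0.85, 0.243 and 0.868).

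Slc7a7 gave 9.002, 8.982 and 9.265 in wild-type samples against 7.79, 8.02 and 7.88 in knockout samples. The groups were apart, and both stayed above the dim level. The mean fell from 9.08 ± 0.16 to 7.90 ± 0.12 (SD, n = 3 each), a change of -1.19 ± 0.10 (SE; 95% interval -1.43 to -0.94; limma adjusted p = 0.00255). Its neighbours on chromosome 14, Oxa1l and Mrpl52, differed by 0.01 and -0.08 (adjusted p = 0.989 and 0.80).

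Slc36a4 gave 6.52, 6.70 and 6.75 in wild-type samples against 7.54, 7.91 and 7.62 in knockout samples. The groups did not overlap, but the wild-type values lay below the dim level, so the size of the rise is uncertain. The mean rose from 6.66 ± 0.12 to 7.69 ± 0.19 (SD, n = 3 each), by 1.03 ± 0.11 (SE; 95% interval 0.76 to 1.31; limma adjusted p = 0.00655). Its neighbours on chromosome 9, Deup1 and Mtnr1b, differed by 0.02 and -0.11 (adjusted p = 0.988 and 0.794).

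Slc7a3, which encodes the cationic amino acid transporter CAT3, gave 7.04, 7.23 and 7.16 in wild-type samples against 7.74, 7.80 and 7.74 in knockout samples. The knockout values were close together and all above the wild-type values, whose mean was dim, so here too the size is uncertain. The mean rose from 7.14 ± 0.10 to 7.76 ± 0.034 (SD, n = 3 each), by 0.62 ± 0.066 (SE; 95% interval 0.46 to 0.78; limma adjusted p = 0.0058). Its neighbours on the X chromosome, Tex11 and Snx12, differed by -0.05 and -0.04 (adjusted p = 0.97 and 0.952); the next gene but one, Dlg3, differed by 0.37 (adjusted p = 0.06).

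Slc7a11 gave 6.503, 6.501 and 6.541 in wild-type samples against 5.80, 6.08 and 5.98 in knockout samples. The groups were apart, but every value was dim, and no fold is given. The change was -0.56 ± 0.080 (SE; 95% interval -0.76 to -0.37; limma adjusted p = 0.0174). It lost its call when any 1 of the wild-type samples (adjusted p = 0.0828, 0.0752 and 0.07 without samples 1, 2 and 3) or knockout sample 3 (0.0749) was left out. The other 4 genes that passed kept their call whichever sample was left out, with adjusted p of at most 0.0343. The 2 neighbours of Slc7a11 on either side in gene order on chromosome 3 did not pass, the nearest differing by -0.07 (Pcdh18) and -0.13 (Noct).

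Promoter sequence is shown for the genes that passed because Etv5 binds ETS sites and because Slc7a11 is a textbook target of ATF4, the transcription factor of amino acid shortage. RefSeq windows of 300 bases (250 before to 50 after a start; GRCm38.p6, from a C57BL/6J genome, not the strain of these cells) were found for 56 of the 77 genes and for 4 of the 5 that passed. They were searched on both strands for CCGGAAG, a core of the ETS site, and for TGATGNAA, the composite site of ATF4 and C/EBP factors, which do not overlap in any sequence printed here. The 250 bases before the outermost start in that table are printed 5′ to 3′ on the strand of the gene, with matches in capitals.
Slc16a14, chr1:84935084-84935333, minus strand: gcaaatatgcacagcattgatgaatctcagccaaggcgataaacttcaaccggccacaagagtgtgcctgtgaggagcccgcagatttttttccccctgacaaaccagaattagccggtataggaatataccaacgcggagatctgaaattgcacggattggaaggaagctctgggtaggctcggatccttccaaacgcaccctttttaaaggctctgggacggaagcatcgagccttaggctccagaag
Slc36a4, chr9:15709488-15709737, plus strand: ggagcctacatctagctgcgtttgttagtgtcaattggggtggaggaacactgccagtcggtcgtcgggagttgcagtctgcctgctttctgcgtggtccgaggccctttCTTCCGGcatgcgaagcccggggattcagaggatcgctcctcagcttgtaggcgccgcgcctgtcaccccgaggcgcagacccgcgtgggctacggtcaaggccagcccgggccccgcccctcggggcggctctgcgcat
Slc7a7, chr14:54417945-54418194, minus strand: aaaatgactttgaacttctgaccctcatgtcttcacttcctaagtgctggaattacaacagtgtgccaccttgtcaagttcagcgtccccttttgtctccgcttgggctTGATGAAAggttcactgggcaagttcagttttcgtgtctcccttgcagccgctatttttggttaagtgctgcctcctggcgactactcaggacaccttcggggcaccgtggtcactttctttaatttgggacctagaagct
Slc7a11, chr3:50443614-50443863, minus strand: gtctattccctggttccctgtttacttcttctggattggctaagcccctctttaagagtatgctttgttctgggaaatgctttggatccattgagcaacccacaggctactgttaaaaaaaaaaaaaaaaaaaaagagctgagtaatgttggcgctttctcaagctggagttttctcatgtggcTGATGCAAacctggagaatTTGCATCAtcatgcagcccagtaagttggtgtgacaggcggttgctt

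Slc7a11 had TGATGNAA on the strand of the gene 66 to 59 bases before the start and on the other strand 47 to 40 bases before it. In Slc7a7, whose table entry has 5 starts, the outermost window had TGATGNAA from 141 to 134 bases before the start and a further match across the start, past the end of the printed stretch; the window of the next start holds that same place. Slc36a4 had CCGGAAG on the other strand, 140 to 134 bases before the start. Slc16a14, the gene with the largest change, had neither motif in its window. TGATGNAA stood in 3.97% of all 32851 windows and in 5 of the 77 windows of transporter genes (6.49%). CCGGAAG stood in 8.86% of all windows and in 8 of the 77 (10.4%). Among the 8 windows of the genes that passed, 5 of them from Slc7a7, 3 had TGATGNAA and 1 had CCGGAAG. The ETS letters were also in windows of Slc7a6, Slc7a6os, Slc3a2, Slc6a16, Slc36a1 and Slc38a6, none of which passed. TGATGNAA was also in windows of Slc1a4 and Slc6a21, which did not pass either. These matches describe the letters only.

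Across the remaining light and heavy chains little differed. Slc3a2, the heavy chain that Slc7a5, Slc7a6, Slc7a7 and Slc7a11 all need, gave 13.28, 13.34 and 13.36 in wild-type samples against 13.31, 13.42 and 13.34 in knockout samples. The groups overlapped (log2 change 0.03, 95% interval -0.10 to 0.16). Slc7a5, the light chain of the leucine and large neutral amino acid exchanger, gave 13.29, 13.35 and 13.40 against 13.25, 13.38 and 13.24 (-0.06, interval -0.21 to 0.10). Slc7a6, the other light chain that exchanges cationic for neutral amino acids, gave 12.07, 12.12 and 12.13 against 12.08, 12.22 and 12.16. It differed by 0.05 (interval -0.09 to 0.18), while Slc7a7, of the same transport activity, fell by 1.19 on the log2 scale; whether these changes differ from each other was not tested. Slc7a1, the cationic carrier CAT1, gave 11.35, 11.40 and 11.50 against 11.44, 11.50 and 11.42 (0.04, interval -0.11 to 0.18), and its relative Slc7a2 was dim, with a difference of -0.01. Of the 16 genes of the Slc7 family 1 rose, 2 fell and 13 did not pass, and the median change was -0.03, beside -0.0039 over all genes. The share that passed was 18.8%, beside 4.43% of all genes, and an excess was not tested. The Slc3 heavy chain of kidney and gut, Slc3a1, was dim and differed by 0.09.

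**Figure D3:**
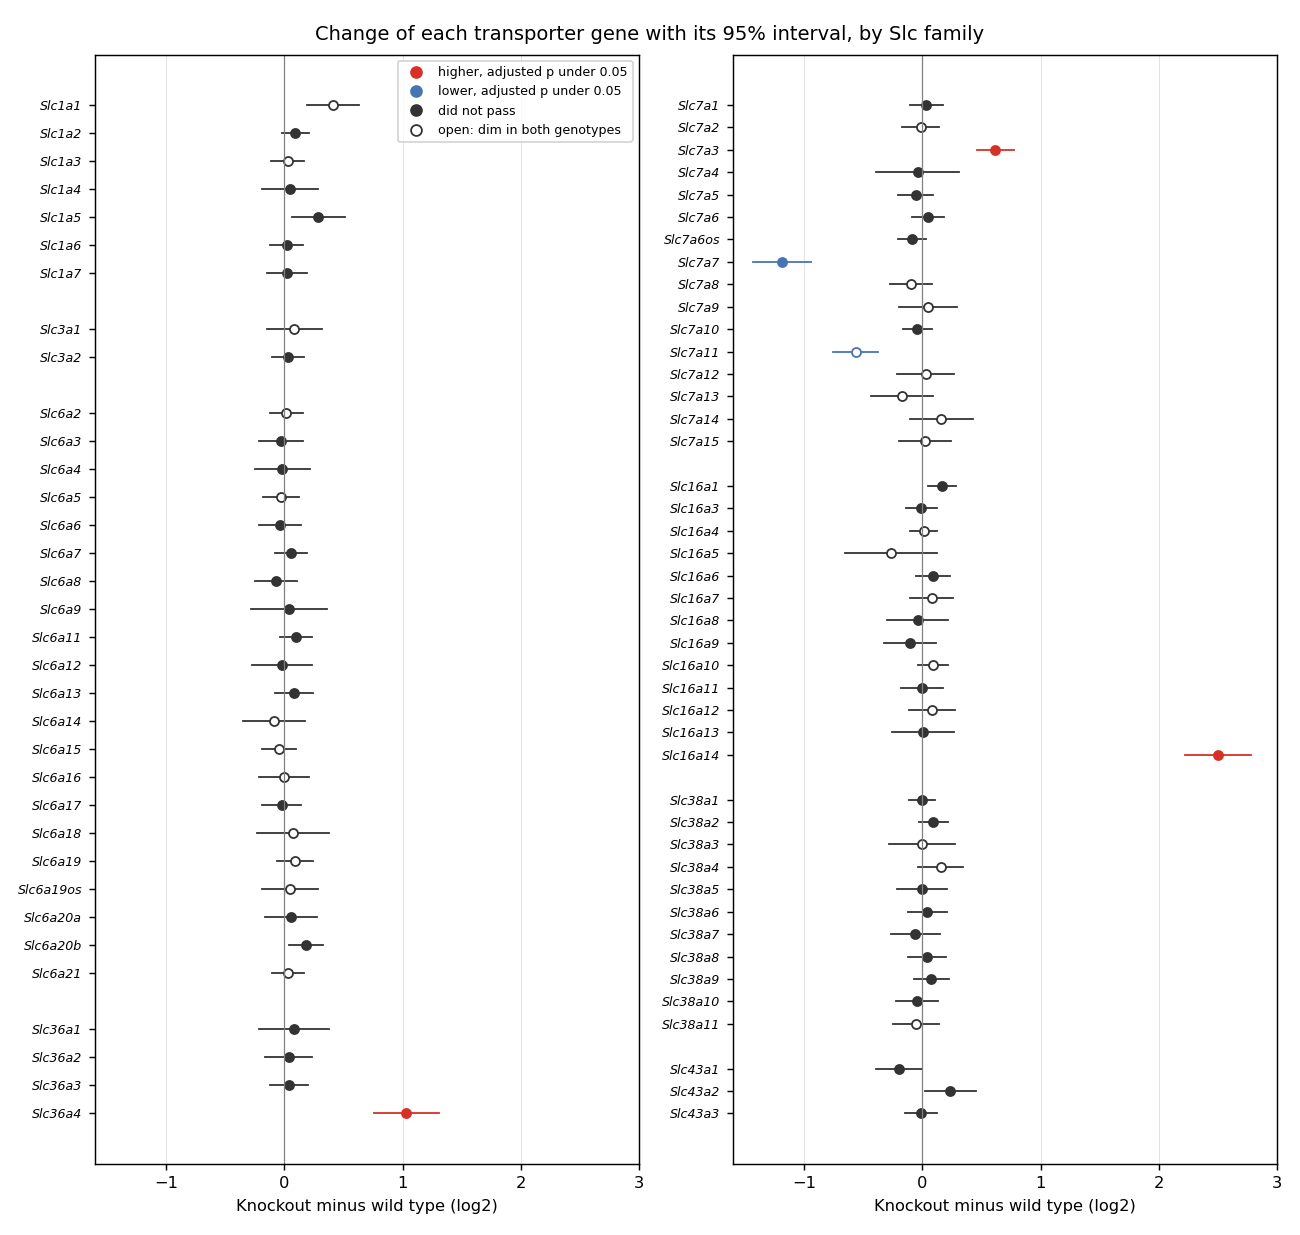
Knockout minus wild type (log2) for each of the 77 genes with its 95% interval from limma, grouped by Slc family; red and blue mark genes that passed higher or lower, and open circles genes dim in both genotypes. The 5 coloured genes belong to the families Slc7, Slc16 and Slc36, and 11 of the 77 intervals, those 5 included, exclude 0.

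Carriers of glutamine, glutamate and other neutral amino acids did not pass. Slc1a5 (ASCT2), which takes up glutamine in proliferating cells, gave 10.44, 10.31 and 10.52 in wild-type samples against 10.58, 10.85 and 10.71 in knockout samples. The knockout values were all above the wild-type values, with a difference of 0.29 ± 0.092 (SE; 95% interval 0.07 to 0.51; limma adjusted p = 0.269). Slc1a4 (ASCT1), a carrier of serine and alanine, differed by 0.05 (interval -0.19 to 0.28). The neuronal-type glutamate carrier gene Slc1a1 was dim in all samples, at 6.53, 6.78 and 6.56 against 7.07, 7.11 and 6.93, a difference of 0.41 ± 0.089 (SE, limma adjusted p = 0.0843). Tested among single-symbol probe sets only, Slc1a1 passed (adjusted p = 0.0232). All 7 Slc1 genes were higher in the knockout on average, by 0.02 to 0.41, and none passed limma. An unadjusted p under 0.05 was reached by 2. Slc1a3, Slc1a4, Slc1a6 and Slc1a7 differed by only 0.02 to 0.05, with overlapping groups. Without knockout sample 2, Slc1a4 differed by -0.05. Of the sodium-coupled glutamine carriers, Slc38a1 gave nearly the same values in all samples. It lay between 12.54 and 12.57 in the wild type and between 12.55 and 12.56 in the knockout (-0.0008, interval -0.11 to 0.11). Slc38a2, which amino acid shortage is known to induce, lay between 13.35 and 13.41 against 13.44 and 13.51. Its knockout values were all above the wild-type values, with a small difference (0.10, interval -0.02 to 0.22, limma adjusted p = 0.619). None of the 11 Slc38 genes passed limma, and none had an unadjusted p under 0.05; their changes ran from -0.06 to 0.16 with a median of -0.0008, which was 0.00456 after quantile normalization.

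Branched-chain and nucleobase carriers of the Slc43 family lay above the dim level, and their small differences went both ways. Slc43a1 (LAT3), a facilitative carrier of leucine and its relatives, gave 12.11, 12.14 and 12.13 in wild-type samples against 11.79, 12.08 and 11.92 in knockout samples. The knockout values were lower without overlap, with a difference of -0.20 ± 0.080 (SE; 95% interval -0.39 to -0.0024; limma adjusted p = 0.447). Slc43a2 (LAT4), which carries the same amino acids, gave 9.46, 9.44 and 9.56 against 9.58, 9.88 and 9.71, a difference of 0.24 ± 0.089 (SE; interval 0.02 to 0.45; limma adjusted p = 0.38). Slc43a3, a carrier of purine nucleobases, lay between 13.06 and 13.17 in both genotypes (-0.0094, interval -0.15 to 0.13). None of the 3 passed limma, and 2 had an unadjusted p under 0.05.

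Genes of the Slc16 family, which includes the lactate and pyruvate carriers, did not pass apart from Slc16a14. Slc16a1 (MCT1), the main lactate carrier of proliferating lymphocytes, gave 13.20, 13.26 and 13.25 in wild-type samples against 13.44, 13.39 and 13.39 in knockout samples. The knockout values were all higher, with a difference of 0.17 ± 0.048 (SE; 95% interval 0.05 to 0.29; limma adjusted p = 0.206); with a variance trend and robust settings the adjusted p was 0.0144. Slc16a3 (MCT4), the lactate exporter of glycolytic cells, lay between 8.11 and 8.16 against 8.05 and 8.17 (-0.0098, interval -0.14 to 0.12). Slc16a7 (MCT2) was dim, with a difference of 0.08. Slc16a5 was dim as well; 1 of its knockout values, 6.31, lay apart from the other two, 6.85 and 6.87, and from the wild-type range of 6.89 to 7.04 (-0.26, adjusted p = 0.708). Slc16a6 and Slc16a13, above the dim level, differed by 0.09 and 0.0058. In the Slc16 family 1 of 13 genes rose, none fell and 12 did not pass, and the median change was 0.01. Over all genes 2.42% rose and 2.01% fell.

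Slc38a9 and the Slc36 carriers other than Slc36a4 showed no change beyond the spread of samples. Slc36a1 (PAT1), the proton-coupled amino acid carrier of lysosomes, gave 9.11, 9.09 and 9.46 in wild-type samples against 9.17, 9.44 and 9.30 in knockout samples. These overlapped, with a difference of 0.08 (95% interval -0.21 to 0.38). Slc36a2 and Slc36a3, close to the dim level, each differed by 0.04. Slc38a9, the lysosomal arginine sensor, lay between 10.56 and 10.69 against 10.63 and 10.73 (0.08, interval -0.07 to 0.22), and its second probe set differed by 0.03. The family Slc36 thus held 1 risen gene of 4, Slc36a4, which was dim in the wild type. Over all genes 2.42% rose.

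The Slc6 family, the largest with 21 genes and made up mostly of neurotransmitter, taurine, creatine and amino acid carriers, had none that passed limma and 1 with an unadjusted p under 0.05. That gene, the proline carrier gene Slc6a20b, gave 7.42, 7.41 and 7.34 in wild-type samples against 7.63, 7.61 and 7.49 in knockout samples, a difference of 0.18 (adjusted p = 0.294). Slc6a6, the taurine carrier, gave 11.20, 11.23 and 11.28 against 11.10, 11.33 and 11.17 (-0.04, interval -0.22 to 0.14). Slc6a9, a glycine carrier, differed by 0.04 with a wide interval of -0.28 to 0.36, and the creatine carrier Slc6a8 by -0.07. Changes in the family ran from -0.09 to 0.18 with a median of 0.02.

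**Figure D4:**
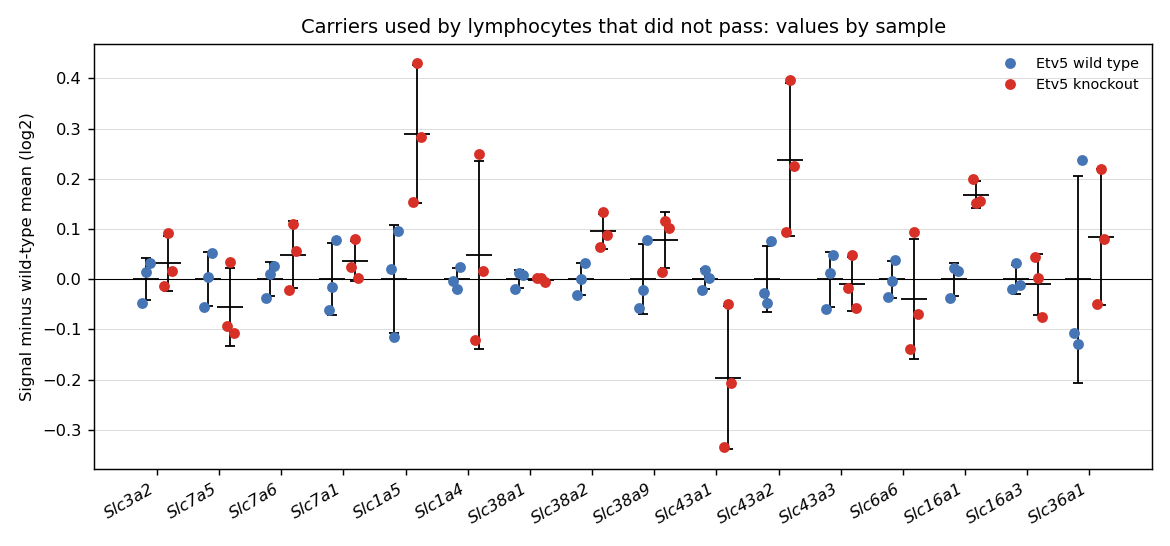
Signal of each sample minus the wild-type mean of that gene (log2) for 16 carriers chosen for their use in lymphocytes that did not pass; points are samples and black bars the mean and SD of 3 samples. Knockout points of Slc1a5, Slc16a1, Slc38a2 and Slc43a2 lie above and those of Slc43a1 below all wild-type points of the same gene. The other 11 genes overlap. Over all genes the genotypes lie apart in 20.5%.

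Of the 45 genes that were dim in neither genotype and did not pass, the median size of the difference was 0.04 log2 units and the largest 0.29, that of Slc1a5. In 44 of them the 95% interval lay within 0.5 log2 units of no change on both sides, and in 29 within 0.25. Over all 77 genes the values of the genotypes did not overlap in 17 (22.1%), 12 with the knockout above and 5 below, beside 20.5% of all genes. A total of 46 genes were higher and 31 lower on average, with a median change of 0.03. Over all 19938 genes, 9603 were higher and 10335 lower, with a median of -0.0039. The median SD between samples was 0.0704 in wild-type samples against 0.0945 in knockout samples, 0.0705 and 0.0869 over all genes.

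Genes that work with these carriers changed in both directions. Of 113 measured genes of the 5 related lists, 8 rose, 4 fell and 101 did not pass (10.6% passed, beside 4.43% of all genes), with a median change of 0.0026. All 12 calls were among the 101 not dim in both genotypes (11.9%, beside 6.27% of such genes in the whole table). The lists were drawn up with earlier results of these data known, so these shares do not test an excess over all genes. With the sample number as a replicate block, 4 of the 12 calls remained. Of the partner proteins that bring carriers to the surface, Bsg (11.58, 11.67 and 11.70 in wild-type samples, 11.64, 11.83 and 11.68 in the knockout) and Nptn overlapped between the genotypes, with differences of 0.07 and 0.05, and Emb, a further partner of Slc16a1, was dim, with a difference of 0.37 (adjusted p = 0.185). None of 4 measured partners passed limma; 2 had an unadjusted p under 0.05. Among 17 lactate and pyruvate genes 1 fell, Pdk1, the kinase that inhibits pyruvate dehydrogenase (log2 change -0.45, limma adjusted p = 0.00667), and the lactate dehydrogenase gene Ldha differed by -0.01.

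Of 30 amino acid enzymes 1 rose and 1 fell, where 4.43% of all genes passed. Cth, which makes cysteine from cystathionine, gave 8.88, 8.76 and 9.17 in wild-type samples against 9.60, 9.73 and 9.64 in knockout samples (0.72 ± 0.11, SE; limma adjusted p = 0.0243). Phgdh, the first enzyme of serine synthesis, gave 11.61, 11.67 and 11.58 against 11.08, 11.10 and 11.19 (-0.50 ± 0.056, SE; limma adjusted p = 0.00712). Asns, which makes asparagine, differed by 0.02 (interval -0.10 to 0.14). Cth and Slc7a11 both supply cysteine to the cell, and their values moved in opposite directions. Slc7a11 was dim in both genotypes. Leaving out 1 sample, Slc7a11 lost its call in 4 of 6 fits and Cth in 5 of 6. A link between the changes was not tested.

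Of 40 genes of amino acid sensing and the ATF4 response 6 rose, 1 fell and 33 did not pass. Over all genes 4.43% passed, and 6.27% of those not dim in both genotypes. This list too was drawn up with earlier results of these data known. Of its calls, only those of Stc2 and Ddit4 were kept whichever sample was left out. Stc2, a secreted stress-induced protein, rose by 1.12 ± 0.098 (SE) from 7.88, 7.79 and 8.12 to 9.03, 9.15 and 8.99, and Ddit4, an inhibitor of mTORC1, rose by 0.87 ± 0.082 (limma adjusted p = 0.00282 and 0.00366). Chac1, which degrades glutathione, rose by 0.48 (adjusted p = 0.0132), and Impact, an inhibitor of the amino acid-sensing kinase GCN2, by 0.38 (adjusted p = 0.0478). Rragd, a subunit of the Rag GTPases that Slc38a9 contacts, rose by 0.28 (adjusted p = 0.0478) and Wdr24, of the GATOR2 complex, by 0.51 (adjusted p = 0.0453). Trib3 fell by 0.43 (limma adjusted p = 0.026). Atf4 itself differed by -0.03 (interval -0.15 to 0.09), Ddit3 by 0.06 and Atf3 by 0.0024, and none of these passed. Whether the activity of ATF4 differed was not tested. The list's median change was 0.06.

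Of 22 amino acid and peptide carriers outside the 8 families 1 rose and 1 fell, where 4.43% of all genes passed. Slc15a2, a peptide transporter, gave 6.41, 6.42 and 6.70 in wild-type samples against 7.48, 7.50 and 7.70 in knockout samples (1.05 ± 0.10, SE; limma adjusted p = 0.00462), with a dim wild-type mean. Slc25a13, the mitochondrial aspartate-glutamate exchanger, gave 8.34, 8.46 and 8.44 against 7.56, 7.81 and 7.84 (-0.67 ± 0.089, SE; limma adjusted p = 0.0132). The 12 calls of the related lists became 5 without wild-type sample 1, 5 without wild-type sample 2, 7 without knockout sample 2 and 6 without knockout sample 3. Rragd and Wdr24 lost theirs whichever sample was left out, Cth in all but that without wild-type sample 3, Impact in all but that without wild-type sample 3, Trib3 in all but that without knockout sample 2, Chac1 without sample 1 or 2 of the wild type or 2 or 3 of the knockout, and Slc25a13 without any 1 of the wild-type samples (highest adjusted p = 0.206, 0.169, 0.114, 0.185, 0.124, 0.0748 and 0.0644). Pdk1, Phgdh, Ddit4, Stc2 and Slc15a2 kept theirs in all 6.

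**Figure D5:**
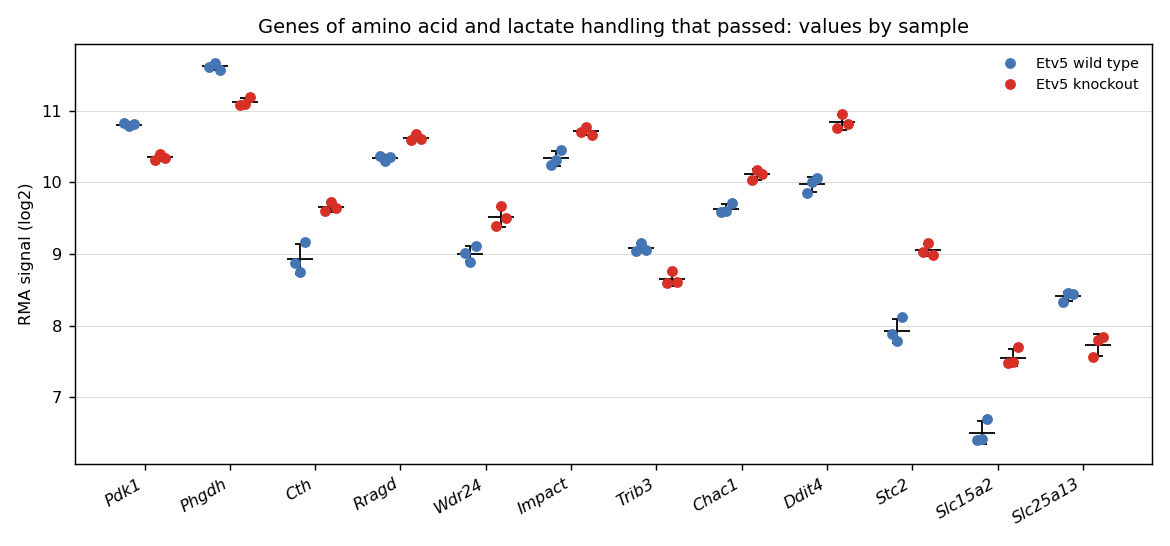
RMA signal (log2) in each of the 6 samples for the 12 genes of amino acid and lactate handling outside the 8 transporter families that passed the test; points are samples and black bars the mean and SD of 3 samples. Stc2 and Slc15a2 show the largest rises, 1.12 and 1.05, and Slc25a13 the largest fall, -0.67.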

How the data were processed

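Array signals of 6 samples, 3 wild type and 3 knockout by their titles, were taken from the deposited table of log2 values, which the authors made with RMA and Partek 6.5, per the submitters' processing notes. RMA corrects background, quantile-normalizes and summarises probes; its settings, the chip definition and filters are not stated there. That the scale is log2 was judged from the range of values. Of 35556 probe sets, 21789 had 1 gene symbol in the platform annotation, 1621 several and 12146 none; each transporter gene matched the RefSeq gene table by identifier. The number of arrays limits the precision.

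limma 3.58.1 (R 4.3.3; lmFit and eBayes, no covariate or trend) was fitted on all probe sets, with Benjamini-Hochberg adjustment over all of them, a threshold of 0.05 and 6.23 total degrees of freedom. An exact permutation test of 3 against 3 cannot go below p = 0.10 and was not used. Tested on simulated data of 35556 probe sets, limma called 43 of 100 probe sets changed by 0.5 and 80 of 100 changed by 1 log2 unit. Values were drawn as independent and normal with the variances seen in the samples. No other probe sets were changed, whereas the real table had 1095 calls. These rates therefore do not give the sensitivity of the real comparison. The members, lists and named genes (those that passed, the brightest of each family, and 18 carriers known from lymphocytes) were chosen with earlier results of these data known; neighbouring genes, and genes named outside that rule, were chosen after values were seen. Alternatives were a replicate block, a filter on dim probe sets, single-symbol probe sets, quantile or median scaling, a variance trend, array weights, other thresholds, probe set means and leaving out each sample.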

Additional observations from a re-analysis of the deposited data

How the results depend on the processing

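The 3 risen genes, Slc16a14, Slc36a4 and Slc7a3, and the fallen Slc7a7 kept direction and call in every alternative that tested them (Slc36a4 was left out with the dimmest 40% of probe sets). The count of risen genes was 2 to 4 and, leaving out 1 sample, 3 in each fit. The count of fallen genes was 1 with the sample number as a replicate block and 1 without the dimmest 40%, where Slc7a11 was not tested, and 1 to 2 leaving out 1 sample. The labels do not say whether sample numbers pair the samples. Deviations from the group means correlated at -0.12, 0.016 and 0.26 for numbers 1, 2 and 3, and not every sample correlated best with its own number. The highest value, 0.31, was between wild-type sample 2 and knockout sample 1. With 3 samples in each group, these correlations cannot decide on a pairing or a shared batch. The replicate block lowered the calls from 1095 to 544 of all probe sets and from 12 to 4 of the related genes (Ddit4, Stc2, Slc15a2 and Slc25a13; Pdk1 and Phgdh had adjusted p = 0.0648 and 0.0639), and gave Slc7a11 an adjusted p of 0.0655. Leaving out 1 sample gave 565 to 857 calls over all probe sets and 5 to 8 among the related genes. With the 90th percentile of receptor genes as the dim level, 16 in place of 28 genes were dim in both genotypes. Among the named genes, signs turned only in those that did not pass, with differences near 0. These were Slc38a1 (0.00456 with quantile normalization, 0.00198 with array weights) and Slc43a3 (0.000397 with quantile normalization). Leaving out 1 sample, they were Slc38a1 (-0.011 to 0.0056), Slc43a3 (-0.039 to 0.015), Slc16a3 (-0.037 to 0.023), Slc1a4 (-0.052 to 0.13) and Slc6a6 (-0.10 to 0.012). Signs also turned in genes not named: the Slc16 family had 9 genes higher and 4 lower in the main fit, and 7 and 6 with quantile normalization. The cause was not tested.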
